A study of Arabidopsis thaliana with 34 samples.

Results

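The 10 genes described here encode xyloglucan endotransglucosylase/hydrolases (XTH) of Arabidopsis thaliana: XTH4 (AT2G06850), XTH15 (AT4G14130), XTH16 (AT3G23730), XTH17 (AT1G65310), XTH18 (AT4G30280), XTH19 (AT4G30290), XTH22 (AT5G57560), XTH23 (AT4G25810), XTH24 (AT4G30270) and XTH25 (AT5G57550). They were taken by locus from the probe annotation of the array and are represented by 11 probe rows, 2 for XTH15 and 1 for each other gene, among 24530 named genes on 26366 of the 34558 rows of the table. XTH enzymes cut the xyloglucan chains that tether cellulose microfibrils in the plant cell wall and rejoin the cut end to another chain or, in some members, to water. This lets a growing wall be loosened, extended and repaired without losing strength, and transcripts of single members are known to respond to auxin, brassinosteroid, touch, shade and wounding. Several of these genes sit in tandem: XTH24, XTH18 and XTH19 follow each other, XTH25 lies next to XTH22, and XTH23 next to XTH14, another family member.

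The study grew plants of the Landsberg background on agar under short days and harvested shoots at 16 days. It compared 3 lines: wild type (WT); C13, which expresses the haemoglobin of the bacterium Vitreoscilla (VHb) in the cytoplasm; and Mt62, which expresses VHb in mitochondria. Hypoxia was 4% oxygen in sealed bags in the light chamber, and the nitric oxide donor DETA was applied to plates at 500 µM. Each treatment lasted 2 or 24 h, and untreated controls were taken at 0, 2 and 24 h. Each transgene location is represented by 1 line, no source used here names the promoter, and the labels describe no mock application of liquid to the controls. The 21 groups comprised 81 array channels by the sample descriptions, and the series design calls the replicates biological and gives 4 for each group. In the descriptions WT at 2 h of DETA, C13 at 2 h of hypoxia and Mt62 at 0 h had 3 channels and the other 18 groups had 4. No source says more on how the replicates were grown, so the errors below may in part be technical.

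Every value below is a log2 fold change from the authors' deposited table, or a difference of such values. The table gives 34 comparisons between groups and no value per channel. In 12 of them treated plants are set against the untreated 2 h or 24 h plants of their line, in 12 against its 0 h plants, and in 10 a VHb line is set against WT. A value is listed where the authors' empirical Bayes t-test gave p of at most 0.01, and is null otherwise. No source states the log base, which was taken as 2. "Rose" and "fell" are used for listed values. The smallest listed value of a probe row sets an upper bound on its standard error, given as "SE at most", and also sets a limit on the size of any value of that row that is not listed. From the bound follows an upper bound on p, which was adjusted by Benjamini-Hochberg over all 34558 rows of a comparison and is given as "adjusted p at most". The smallest listed value of a row, scaled for channel numbers, has a bound of 0.01 on p by construction. A value that does not pass the adjusted bound may still have a smaller p. Limits on values not listed apply to the estimated value, and the true change may lie outside them. The table holds differences only, so neither the level of any XTH gene nor the presence of leaf or root markers in the shoot RNA could be checked. RNA was measured in whole shoots, where fewer cells of a type and less RNA per cell cannot be told apart.

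After 2 h of DETA 8 of the 10 genes rose in at least 1 line and none fell. After 24 h of hypoxia 3 rose and 4 fell, and after 24 h of DETA 3 rose. The share of all genes listed in at least 1 line was not computed, so these counts have no background. The shares that follow are of values. Over the 3 lines, 17 of 30 values were higher and 0 lower at 2 h of DETA (56.7%). Over all named genes 5.44% of values were higher and 5.15% lower. At 24 h of DETA 4 of 30 were higher and 0 lower (background 4.01% and 4.33%). At 2 h of hypoxia 1 was higher and 5 were lower (3.33% and 16.7%, against a background of 9.09% and 10.1%). At 24 h of hypoxia 5 were higher and 9 lower (16.7% and 30.0%, against a background of 17.1% and 16.6%). The members were chosen with earlier results of these data known, so these counts describe the genes and test nothing about the family.

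**Figure D1:**
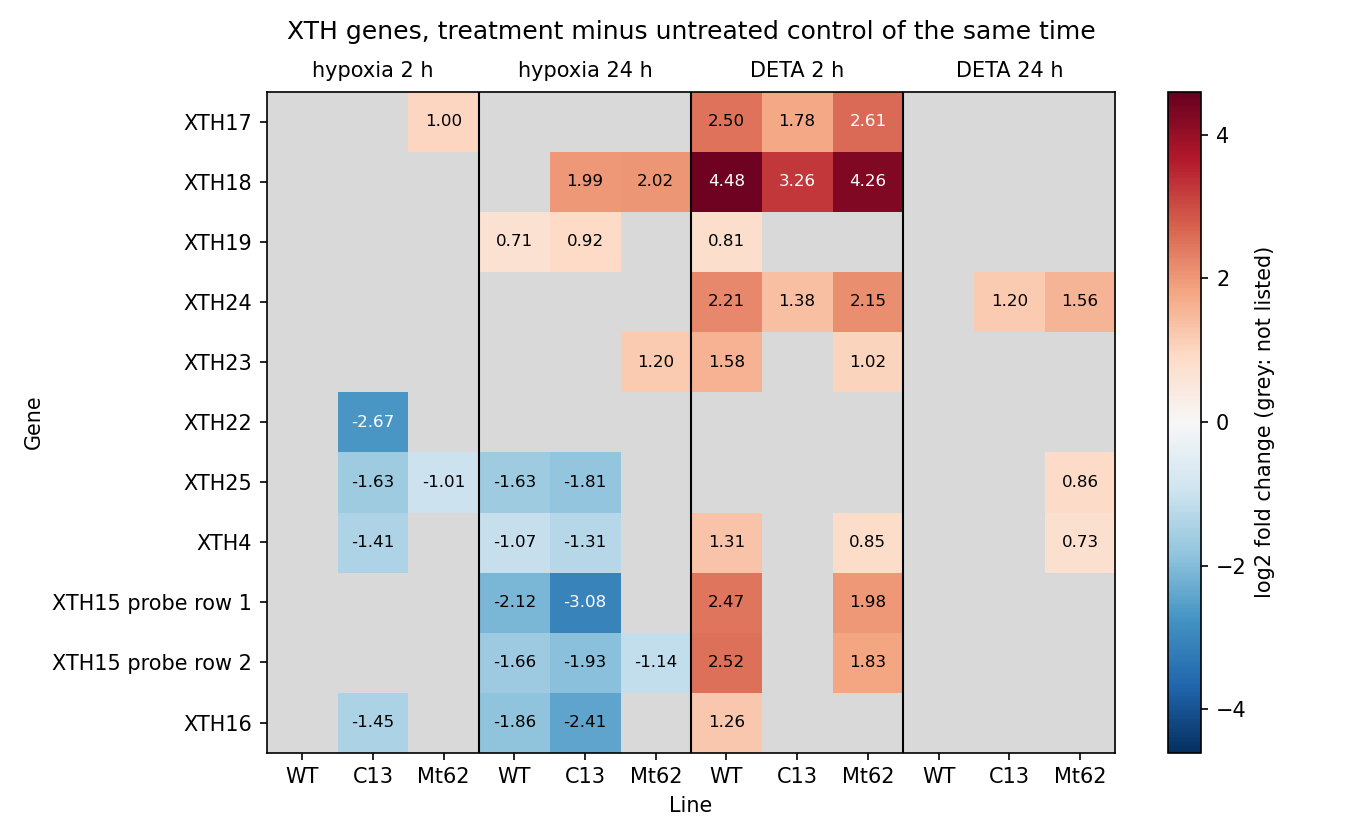
Log2 fold changes of the 10 XTH genes (rows; XTH15 has 2 probe rows) in the 12 comparisons with the untreated control of the same time (columns, by treatment and line); grey cells are values that the table does not list. The DETA 2 h block is red or grey in every cell, from 0.81 for XTH19 to 4.48 for XTH18, while the hypoxia 24 h block holds both colours.

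XTH18, which in Arabidopsis acts in elongation of the primary root, had the largest listed rise of the 10 genes. After 2 h of DETA it rose by 4.48 in WT, 3.26 in C13 and 4.26 in Mt62 in the authors' deposited table (SE at most 0.66, 0.61 and 0.61; adjusted p at most 1.69e-06, 0.000265 and 9.36e-07). These are 22.2-fold, 9.58-fold and 19.1-fold rises. WT and Mt62 stood close together and C13 lower. Yet the response of C13 differed from that of WT by -1.21 with a 95% interval of -3.02 to 0.59 (adjusted p at most 0.788), so neither a difference between these lines nor a like response was shown. In that contrast 1.35% of recoverable rows passed. For Mt62 the difference was -0.22 (-2.02 to 1.59), where 0.125% of rows passed. At 24 h of DETA XTH18 was listed in no line, which limits its estimated value to 1.63 in size.

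XTH17, a close relative of XTH18, followed the same course at a lower amplitude. It rose by 2.50 in WT, 1.78 in C13 and 2.61 in Mt62 at 2 h of DETA (SE at most 0.41, 0.38 and 0.38; adjusted p at most 1.08e-05, 0.00141 and 9.75e-07). C13 was again the lowest of the 3, by -0.72 from WT with an interval of -1.83 to 0.39 (adjusted p at most 0.815). At 24 h it was not listed in any line, which limits it to 1.00.

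XTH24, first described as the meristem gene MERI5 and next to XTH18 on the chromosome, was the third gene listed in all lines. Its rises at 2 h of DETA were 2.21 in WT, 1.38 in C13 and 2.15 in Mt62 (SE at most 0.40, 0.37 and 0.37; adjusted p at most 7.83e-05, 0.0184 and 3.89e-05). Of all named genes 2.47% were listed as higher in all 3 lines in this comparison, against 3 of the 10 XTH genes. At 24 h of DETA XTH24 was higher by 1.20 in C13 (adjusted p at most 0.0627) and 1.56 in Mt62 (adjusted p at most 0.00866). In Mt62 the 24 h response differed from the 2 h response by -0.59 (-1.64 to 0.47), and in C13 by -0.18 (-1.23 to 0.87). In WT it was not listed against the 24 h control. Against the 0 h control the reverse held: WT was at 1.08 (adjusted p at most 0.397), and C13 and Mt62 were not listed.

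XTH15, known as XTR7 and used as a marker of shade responses, and XTH4, an endoxyloglucan transferase gene, rose at 2 h of DETA in WT and Mt62. Both probe rows of XTH15 gave the same picture. The first was at 2.47 in WT and 1.98 in Mt62 (adjusted p at most 0.0022 and 0.0102), and the second at 2.52 and 1.83 (adjusted p at most 1.57e-05 and 0.000834). XTH4 stood at 1.31 in WT and 0.85 in Mt62 (SE at most 0.29 and 0.27; adjusted p at most 0.00182 and 0.0481). In C13 neither gene was listed against the 2 h control, which limits XTH15 to 1.39 on the first row and 1.03 on the second, and XTH4 to 0.73.

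The other 5 members were listed in WT and Mt62, in WT alone or in no line after 2 h of DETA. XTH23, also called XTR6, rose by 1.58 in WT (adjusted p at most 0.00878) and was at 1.02 in Mt62 (adjusted p at most 0.103). XTH16 was at 1.26 in WT alone (adjusted p at most 0.1). XTH19, which in Arabidopsis takes part in the healing of cut stems, was at 0.81 in WT alone (adjusted p at most 0.0938). Neither passed the adjusted bound, and the XTH16 value is the one that sets the bound of its row. XTH22, known as TCH4 for its rapid rise on touch, and XTH25 were listed in no line. Their estimated values are limited there to 1.86 for XTH22 and 0.93 for XTH25 in size. Of the 17 values listed at 2 h of DETA, 14 passed the adjusted bound.

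**Figure D2:**
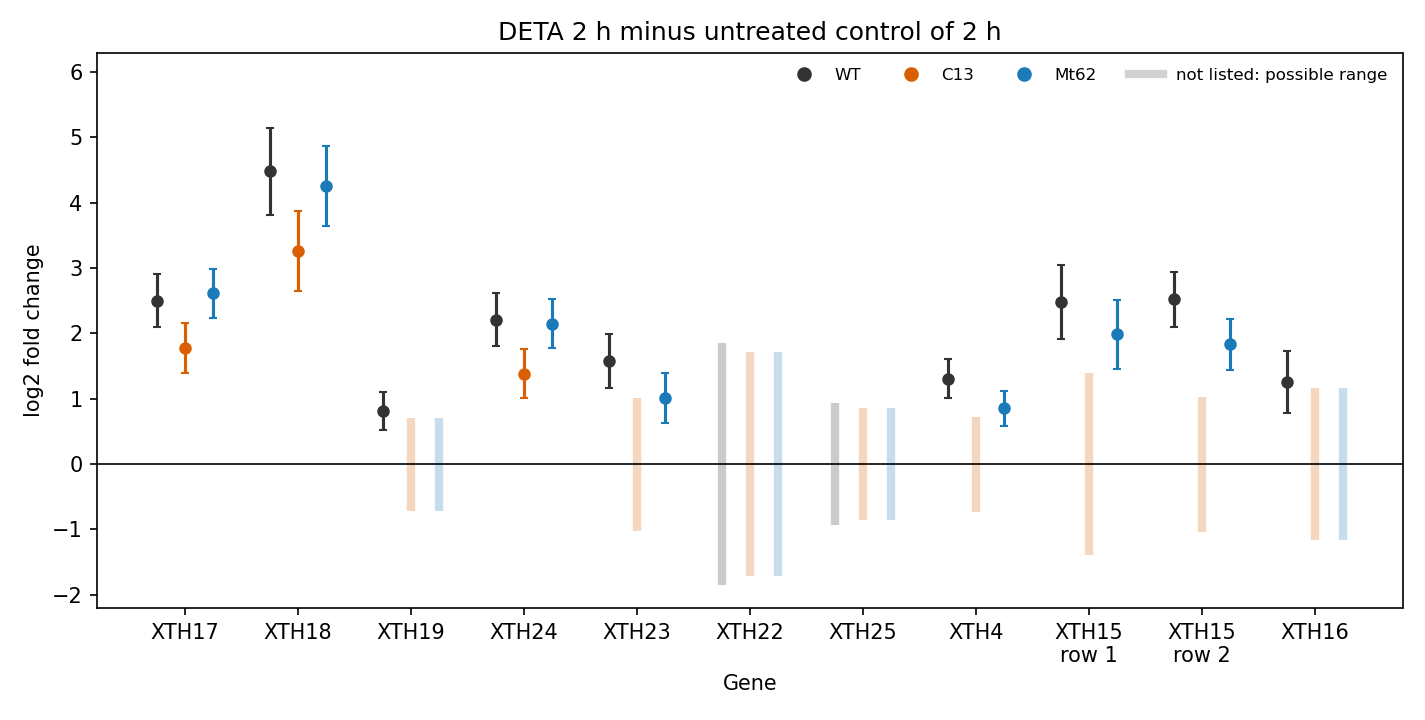
Log2 fold change of each XTH gene after 2 h of DETA against the untreated 2 h control, by line; points are listed values with the standard error bound as the error bar, and pale bars span the limits within which a value that is not listed lies. XTH18 stands highest in each line at 4.48, 3.26 and 4.26, and the C13 point is the lowest of the 3 wherever all lines are listed.

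The listed responses of XTH17, XTH18 and XTH24 to 2 h of DETA were smaller when measured from the 0 h control than from the 2 h control. Against the 0 h control XTH18 rose by 3.27 in WT, 3.13 in C13 and 3.15 in Mt62, closer together than with the 2 h control. The 2 h minus 0 h difference of XTH18 in untreated plants was -1.21 in WT (95% interval -2.43 to 0.02), -0.13 in C13 (-1.36 to 1.09) and -1.10 in Mt62 (-2.43 to 0.22). XTH17 likewise stood at -0.77 in WT, -0.31 in C13 and -1.36 in Mt62. Of these shifts only that of XTH17 in Mt62 passed the adjusted bound (SE at most 0.41; adjusted p at most 0.0111), where 16.6% of the 4282 rows recoverable in that contrast passed (18.3% in WT and 15.4% in C13). XTH24 gave -0.47, -0.27 and -1.07 (adjusted p at most 0.499, 0.799 and 0.0563). In WT the 2 rows of XTH15 moved the other way, by 0.79 and 0.50, and XTH4 by 0.11 (adjusted p at most 0.382, 0.496 and 0.921). In Mt62 these were 0.38, -0.11 and 0.24, and none passed.

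With the 0 h control 17 of 30 values were again higher at 2 h of DETA and 0 lower, against 7.92% higher and 7.21% lower over all genes. Listed in all 3 lines were 5 members in place of 3, against 4.22% of all genes. XTH15 and XTH4 joined XTH17, XTH18 and XTH24. XTH17 stood at 1.73 in WT, 1.47 in C13 and 1.26 in Mt62 (adjusted p at most 0.00165, 0.00487 and 0.0377), less than with the 2 h control in each line. XTH24 was at 1.74, 1.11 and 1.07, and its value in Mt62 did not pass the adjusted bound (adjusted p at most 0.00141, 0.0471 and 0.0793). For XTH17 and XTH24 the lowest line was thus Mt62 with the 0 h control and C13 with the 2 h control. In C13 XTH15 now rose by 1.97 on the first row and 1.83 on the second (adjusted p at most 0.00709 and 0.000472), and XTH4 by 1.13 (adjusted p at most 0.00253). WT was higher for XTH15, at 3.27 and 3.02, and for XTH4, at 1.42. Mt62 gave 2.37 and 1.72 for XTH15 and 1.09 for XTH4. Other values were listed with 1 control only. Measured from 0 h, XTH16 in WT and XTH23 in WT and Mt62 were no longer listed, and XTH23 was at 1.09 in C13 (adjusted p at most 0.0607), where it was not listed with the 2 h control. The comparisons of a line with each of its controls share the treated plants.

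**Figure D3:**
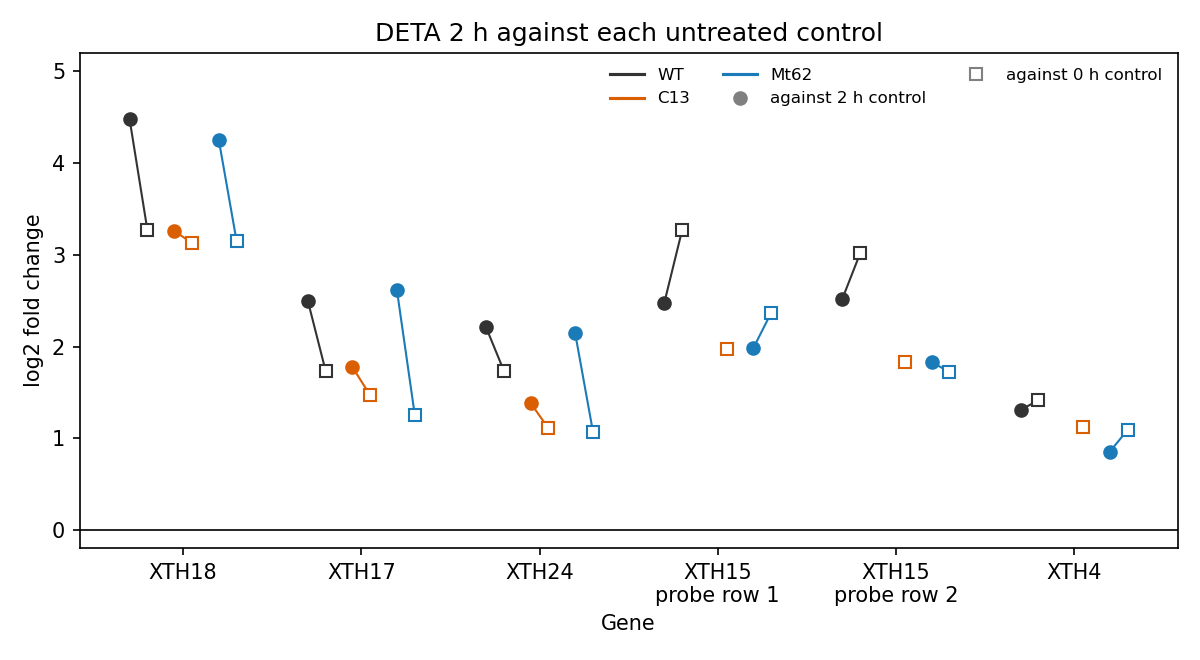
Log2 fold change after 2 h of DETA against the untreated 2 h control (filled circles) and the 0 h control (open squares) for 5 XTH genes, by line; a line joins the pair of values of a gene and line. XTH18 lies between 3.13 and 3.27 in all 3 lines against the 0 h control and between 3.26 and 4.48 against the 2 h control.

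At 2 h of hypoxia the listed changes were mostly falls, and XTH25 and XTH22, which DETA left unlisted at this time, were among them. XTH25, also known as XTR3, fell by 1.63 in C13 and 1.01 in Mt62 (SE at most 0.35 and 0.32; adjusted p at most 0.000513 and 0.0256). It was not listed in WT with the 2 h control and was at -0.86 there with the 0 h control (adjusted p at most 0.0617). With that control C13 stood at -1.67 and Mt62 at -1.37 (adjusted p at most 0.000343 and 0.0038). XTH22 fell by 2.67 in C13 (SE at most 0.70; adjusted p at most 0.0052). Against the 0 h control its values were -2.58 in WT, -1.96 in C13 and -1.86 in Mt62 (adjusted p at most 0.00324, 0.0501 and 0.0632). XTH22 and its neighbour XTH25 were the 2 members listed as lower in all 3 lines against the 0 h control, where 6.32% of all genes were. They made up all 6 of the 30 values listed as lower against that control (background 10.2%). In C13 XTH4 fell by 1.41 and XTH16 by 1.45 as well (adjusted p at most 0.00034 and 0.0317). XTH17 was the single member with a higher value, 1.00 in Mt62 (adjusted p at most 0.0606), and against the 0 h control of Mt62 it came to -0.35, which the table does not list.

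Against the 2 h control C13 had 4 members down at 2 h of hypoxia, Mt62 had 1 and WT had 0. Of all named genes 10.4% were lower in C13, 10.0% in Mt62 and 9.91% in WT. No difference in response between C13 and WT was shown for these 4. A value that is not listed lies within its limit, so each difference has a least size: -0.69 for XTH4, -0.77 for XTH25, -0.95 for XTH22 and -0.29 for XTH16, with p at most 0.0918, 0.112, 0.322 and 0.657 before adjustment. In that contrast 0.0% of 7503 rows passed. In the direct comparison of C13 with WT under 2 h of hypoxia none of the 10 genes was listed.

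After 24 h of hypoxia the share of member values listed as higher was near that of all genes (16.7% against 17.1%). The share listed as lower was above it (30.0% against 16.6%). No member was listed with both signs. XTH15, XTH16, XTH25 and XTH4 fell. XTH15 stood at -2.12 in WT and -3.08 in C13 on its first row (adjusted p at most 0.001 and 3.34e-06). The second row gave -1.66, -1.93 and -1.14 in WT, C13 and Mt62 (adjusted p at most 0.000495, 6.36e-05 and 0.0202). XTH15 was the 1 member called lower in all 3 lines, in Mt62 on 1 of its 2 rows, and 11.0% of all genes were lower in all lines. That call ended with the 0 h control: XTH15 was not listed in WT on either row, was at -1.66 in C13 on the first row alone (adjusted p at most 0.0104), and at -1.51 in Mt62 on both rows (adjusted p at most 0.0362 and 0.00397). On the first row untreated C13 plants stood higher at 24 h than at 0 h by 1.42 (interval 0.38 to 2.47). This shift separates the C13 values of -3.08 and -1.66, and it did not pass the adjusted bound (adjusted p at most 0.089). On the second row the shift in Mt62 was -0.36 (adjusted p at most 0.884).

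The other 3 genes that fell did so in WT and C13. XTH16 was at -1.86 in WT and -2.41 in C13 (SE at most 0.44; adjusted p at most 0.00054 and 1.13e-05). XTH25 was at -1.63 and -1.81 (SE at most 0.32; adjusted p at most 4.79e-05 and 8.66e-06), and XTH4 at -1.07 and -1.31 (SE at most 0.27; adjusted p at most 0.00137 and 0.000108). From 0 h to 24 h untreated C13 plants shifted by 0.57 for XTH4, 0.15 for XTH16 and -0.23 for XTH25. Untreated WT plants shifted by 0.09, -0.33 and 0.003, and none of these shifts passed the adjusted bound. Mt62 was not listed for these genes with the 24 h control. With the 0 h control it was, at -1.41 for XTH16, -1.54 for XTH25 and -1.09 for XTH4 (adjusted p at most 0.0186, 0.000407 and 0.00287), so that XTH4, XTH16 and XTH25 were lower in all 3 lines, as were 11.8% of all genes. No difference between Mt62 and WT in response to 24 h of hypoxia was shown for these 3 genes. With Mt62 at the edge of its limit, the least differences were 0.77 for XTH25, 0.69 for XTH16 and 0.35 for XTH4. Before adjustment p was at most 0.0987, 0.266 and 0.373, and none passed the adjusted bound. In that contrast 0.0159% of rows passed. In the direct comparison of Mt62 with WT under 24 h of hypoxia none of the 10 genes was listed.

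XTH18, XTH19 and XTH23 rose after 24 h of hypoxia. XTH18 rose by 1.99 in C13 and 2.02 in Mt62 (SE at most 0.61; adjusted p at most 0.0093 and 0.00859) and was not listed in WT, which limits WT to 1.63. XTH19 rose by 0.71 in WT and 0.92 in C13 (SE at most 0.27; adjusted p at most 0.0319 and 0.00591). XTH23 rose by 1.20 in Mt62 alone (SE at most 0.38; adjusted p at most 0.0124). With the 0 h control C13 kept XTH18 at 1.63 and XTH19 at 0.81 (adjusted p at most 0.0309 and 0.0152), and no other rise was listed. XTH17, XTH22 and XTH24 were not listed in any line at this time with either control.

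**Figure D4:**
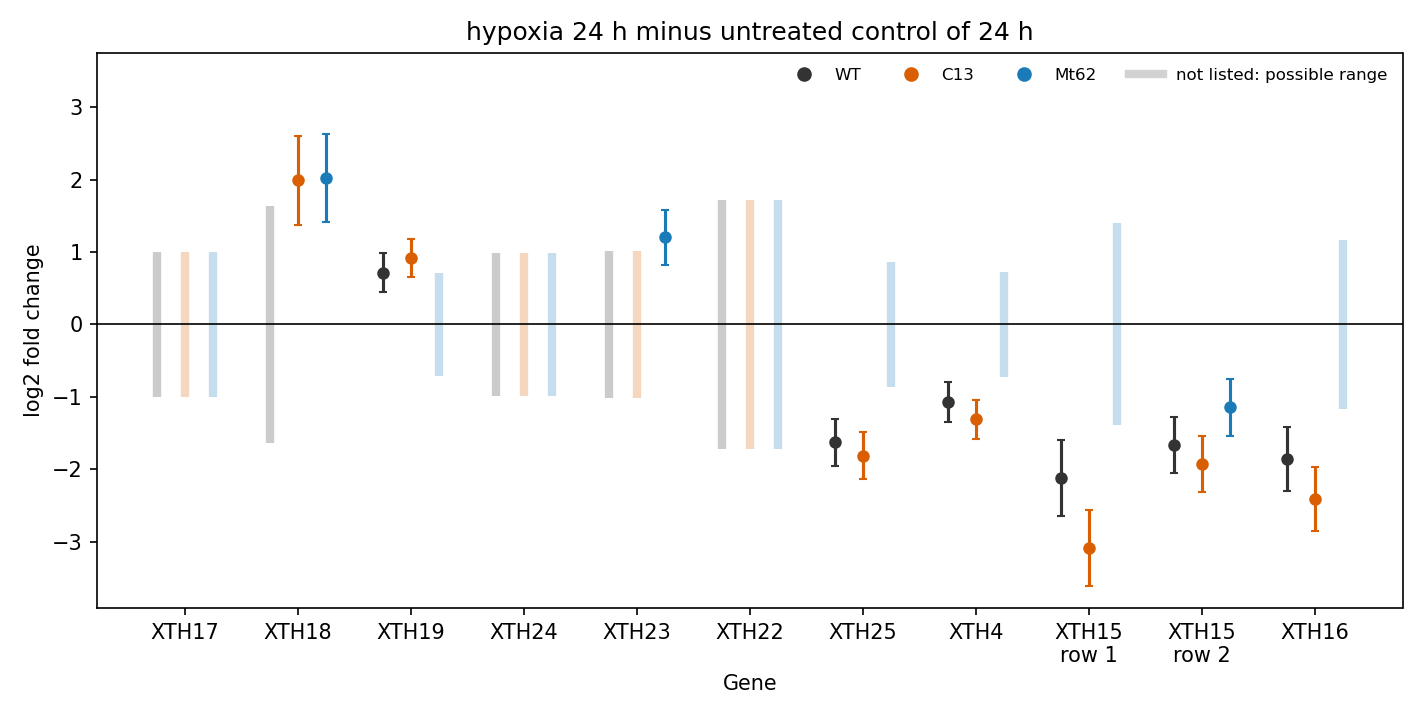
Log2 fold change of each XTH gene after 24 h of hypoxia against the untreated 24 h control, by line; points are listed values with the standard error bound as the error bar, and pale bars span the limits of values that are not listed. XTH4, XTH15, XTH16 and XTH25 lie below 0, down to -3.08, and XTH18, XTH19 and XTH23 above it, up to 2.02. The lowest value, of XTH15 in C13, was -1.66 on the same row when measured from the 0 h control.

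The treatments were compared at matched times, where the shared control cancels. XTH17 in Mt62 was the 1 case at 2 h with both responses listed. Hypoxia stood below DETA there by 1.61 on the log2 scale (a difference of -1.61, 95% interval -2.36 to -0.86, adjusted p at most 0.000383), and 32.5% of the 2998 rows recoverable in this contrast passed. For the other members the response that is not listed was placed at the edge of its limit, which gives the least size of the difference. XTH18 differed between hypoxia and DETA at 2 h by at least 2.85 in WT and 2.63 in Mt62 (adjusted p at most 0.0011 and 0.000867). The least differences of XTH24 were 1.22 in WT and 1.15 in Mt62 (adjusted p at most 0.0323 and 0.0223). In WT those of XTH17 and the second row of XTH15 were 1.50 and 1.49 (adjusted p at most 0.00635 and 0.00858). The first row of XTH15 did not pass there, with a least difference of 1.08 (adjusted p at most 0.296). In C13 no member passed at 2 h, XTH18 with a least difference of 1.50 included (adjusted p at most 0.152). Rows that passed in this way made up 12.4% of rows in WT, 12.5% in C13 and 16.0% in Mt62.

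Against the controls of the same time XTH4, XTH15 and XTH16 were listed in WT as lower after 24 h of hypoxia and higher after 2 h of DETA. With the 0 h control both signs were listed in WT for XTH4 alone, since XTH15 lost its hypoxia value and XTH16 its DETA value. XTH25 was listed as lower after hypoxia and had a single higher value after DETA, 0.86 in Mt62 at 24 h (adjusted p at most 0.195). At 24 h in C13, hypoxia lay below DETA by at least 1.69 for the first row of XTH15, 1.25 for XTH16 and 0.95 for XTH25 (adjusted p at most 0.0102, 0.0251 and 0.0207), where 27.3% of rows passed. The second row of XTH15 did not pass there, with a least difference of 0.90 (adjusted p at most 0.0805). No member passed at 24 h in WT, where XTH25 came to at least 0.77 (adjusted p at most 0.066) and 30.2% of rows passed, or in Mt62, where 26.4% did.

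Between 2 and 24 h of DETA the fall of XTH18 in WT was at least 2.85 (adjusted p at most 0.0465, where 5.51% of rows passed). The least falls of XTH18 and XTH17 in Mt62, 2.63 and 1.61, did not pass (adjusted p at most 0.081 and 0.0827, where 3.73% of rows passed). The 24 h response of the 10 genes to DETA consisted of XTH24 in C13 and Mt62, XTH25 in Mt62, and XTH4 at 0.73 in Mt62 (adjusted p at most 0.195). Against the 0 h control 1 of 30 values was listed, XTH24 in WT, where 1.57% of values of all genes were higher.

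Direct comparison of the transgenic lines with WT listed 1 of 100 values of the 10 genes, 50 for each line over 5 conditions. The second row of XTH15 was lower in C13 than in WT after 2 h of DETA, at -1.12 (SE at most 0.42; p at most 0.01 before and 0.431 after adjustment). The first row was not listed in that comparison. Over all named genes 1.24% of values were higher and 1.34% lower in C13 than in WT, and 1.09% and 1.18% in Mt62. On the second row of XTH15 the difference between C13 and WT at 0 h could be recovered from other columns as 0.08, and it was not listed. Measured from the 2 h controls, the least difference of that row in response to 2 h of DETA was 1.49, with C13 below WT. It did not pass (p at most 0.0114, adjusted p at most 0.605), and 0.202% of rows passed in that contrast. The first row had a least difference of 1.08 in the same direction (p at most 0.166 before adjustment). On the second row the limit for C13 follows from the value of -1.12 itself, so the 2 results are not separate. Of 17 differences in response between a transgenic line and WT that could be computed for member rows, 0 passed the adjusted bound. The upper bound on p was above 0.05 for each of these differences, though p itself may be smaller. After 24 h of hypoxia, which holds 7 of them, 0.0818% of recoverable rows passed for C13 and 0.0262% for Mt62.

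The rest of the family and the genes around xyloglucan give the setting. Of 23 other XTH genes measured, 7 of 69 values were higher and 2 lower at 2 h of DETA (10.1% and 2.9%, against 5.44% and 5.15% over all genes). XTH20, another close relative of XTH18, rose in all lines, by 1.05 in WT, 0.80 in C13 and 1.15 in Mt62. At 24 h of DETA XTH28 was at -0.61, -0.55 and -0.59, and it was not listed with the 0 h control. Under hypoxia the other XTH genes moved mostly down, with 18 of 69 values lower and 7 higher at 2 h (26.1% and 10.1%, against 10.1% and 9.09% over all genes). At 24 h 25 were lower and 5 higher (36.2% and 7.25%, against 16.6% and 17.1%). XTH30 was at -1.88, -2.57 and -1.76 and XTH9 at -1.88, -2.39 and -1.83 in WT, C13 and Mt62 at 2 h. XTH9 was listed in WT alone with the 0 h control, at -1.20. The largest mean fall of the 23 genes at 24 h, among those listed in all lines, was that of XTH6 (-2.56, -2.72 and -1.47). XTH31, known in Arabidopsis for hydrolase activity and aluminium sensitivity, rose at 2 h of hypoxia in all lines, by 1.23, 1.58 and 1.20, and was not listed with the 0 h control. Elsewhere XTH31 also had lower values. It was listed in 6 of the 12 comparisons with the control of the same time, from -2.21 to 1.58.

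Genes that build or trim xyloglucan fell at 24 h of hypoxia. Of 33 values of 11 such genes, 25 were lower and 0 higher at 24 h (75.8% and 0.0%, against 16.6% and 17.1% over all genes). In all 3 lines 6 of these genes were lower, against 11.0% of all genes. Measured from 0 h, 18 values were lower and 3 higher (54.5% and 9.09%, against 17.3% and 17.9% over all genes). The glucan synthase gene CSLC4 (CSLC04 in the annotation) was at -1.59 in WT, -1.91 in C13 and -1.27 in Mt62, and the alpha-xylosidase gene XYL1 at -1.42, -1.58 and -1.93, though XYL1 was not listed in WT with the 0 h control. At 2 h of DETA the same genes had 6 values higher and 3 lower (18.2% and 9.09%, against 5.44% and 5.15%). BGAL10, a beta-galactosidase of xyloglucan, was at -1.22, -0.58 and -0.76 at 2 h of hypoxia and was higher with the 0 h control (0.99, 0.72 and 1.09).

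Expansins, which loosen walls without cutting chains, had 6 of 48 values higher and 11 lower at 2 h of DETA (12.5% and 22.9%, against 5.44% and 5.15% over all genes). EXPA1 rose in all lines by 0.84, 0.99 and 1.18 and was not listed with the 0 h control, and EXPA15 stood at -0.76, -0.85 and -1.05. At 24 h of hypoxia 8 expansin values were higher and 17 lower (16.7% and 35.4%, against 17.1% and 16.6%). In all 3 lines 1 expansin was higher, EXPA10 at 2.86, 1.62 and 3.24, and 1 lower, EXP3 at -1.38, -1.05 and -1.69. Of 9 root markers measured, 2 of 27 values were higher and 1 lower at 2 h of DETA (7.41% and 3.7%, against 5.44% and 5.15% over all genes). At 24 h of hypoxia 2 were higher and 5 lower (7.41% and 18.5%, against 17.1% and 16.6%). The 2 higher values at 2 h of DETA were both of the potassium channel gene AKT1, at 0.69 in Mt62 and 0.47 in C13, and the lower one was of SHR in Mt62, at -0.38. PYK10, a beta-glucosidase of roots, was at 1.00 after 24 h of DETA in WT and at -1.17 and -1.79 after 24 h of hypoxia in WT and Mt62, against the 24 h control. The other lower values at 24 h of hypoxia were of SCR, at -0.66, -0.63 and -0.62 in WT, C13 and Mt62. The higher ones were of AKT1, at 0.58 in WT and 0.75 in C13. Against the 0 h control PYK10 was at -1.56, -1.39 and -1.68 in WT, C13 and Mt62 after 24 h of hypoxia, and at -0.95 in C13 after 2 h of DETA. With that control SCR was at -1.20, -0.94 and -1.04 and SHR at -0.53, -0.50 and -0.58 after 24 h of hypoxia, and EXPA7 at -0.48 in WT. AKT1 was at 0.64 in WT and 0.94 in C13 there, and at 0.56, 0.76 and 0.56 after 2 h of DETA. BGLU22, EXPA18, IRT1 and RHS19 were listed in none of the 34 comparisons. The part of root RNA in the XTH responses was not tested.

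**Figure D5:**
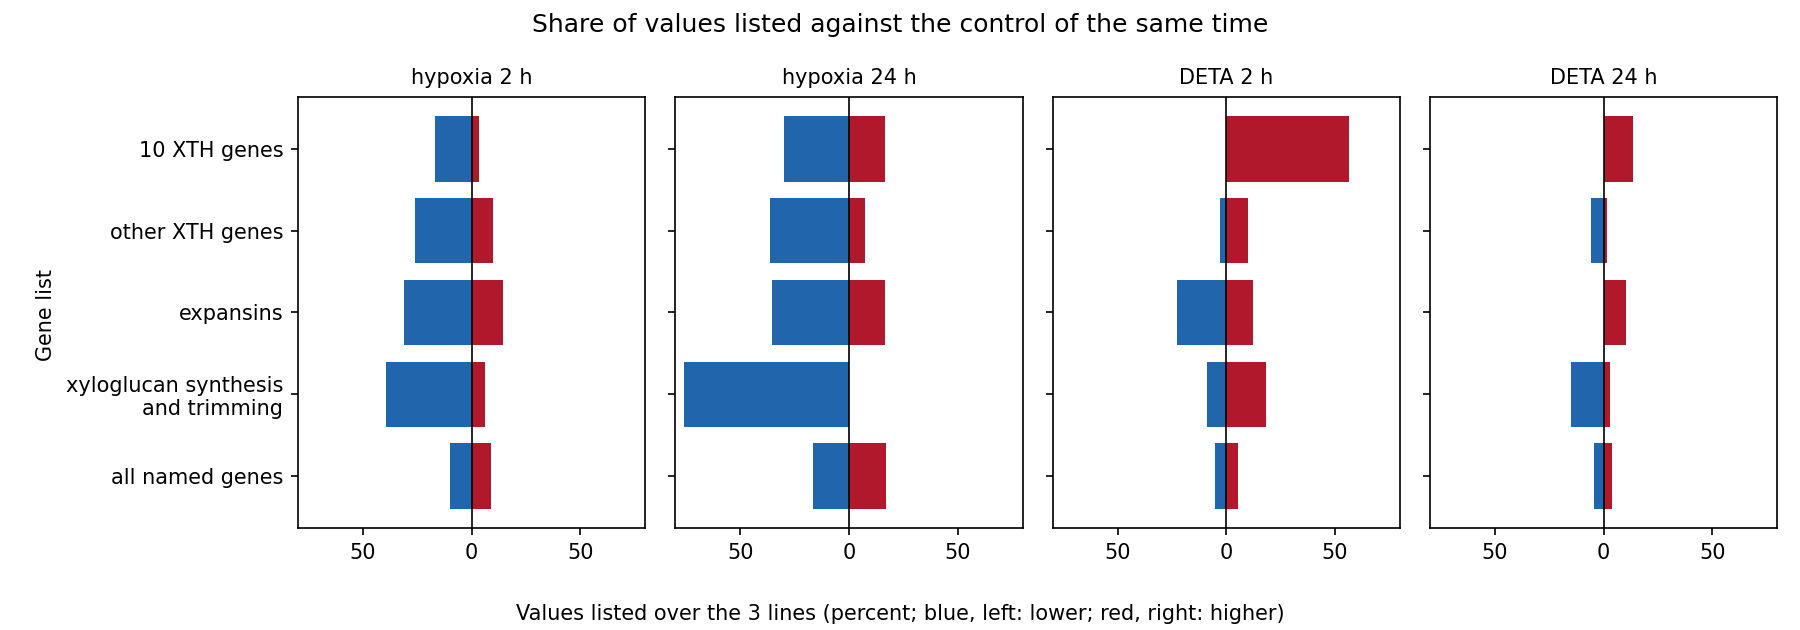
Percent of values (genes times 3 lines) listed as higher (red, right) or lower (blue, left) against the control of the same time, for the 10 XTH genes, the 23 other XTH genes, 16 expansins, 11 xyloglucan synthesis and trimming genes, and all named genes. At 2 h of DETA the bar of the 10 XTH genes reaches 56.7% to the right, and at 24 h of hypoxia the xyloglucan bar reaches 75.8% to the left.

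XTH4 was the only member listed in 6 of the 12 comparisons with the control of the same time, the number required for a search of like patterns. Among 3338 genes listed as often, the closest were SCPL34, a serine carboxypeptidase-like gene (Pearson r = 0.95), FLA9, a fasciclin-like arabinogalactan protein gene (r = 0.94), and SD2-5, a receptor-like kinase gene (r = 0.93). These correlations run over 12 comparisons that share control plants, with values not listed taken as 0, and are a description. The sequences of the probes were not used here, so signal shared between close relatives such as XTH17, XTH18 and XTH19 was not tested.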

How the data were processed

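Per the labels' protocols, amplified shoot RNA was labelled with 1 of 3 dyes and hybridized 3 samples to a field. The series design text, deposited by the authors, names quantile normalization, an in-house ComBat and an empirical Bayes t-test. The deposited values are log2 fold changes between groups (base assumed), null above p of 0.01, and described as averaged over the probes of a gene, although XTH15 has 2 rows; no adjustment of the authors' p-value is stated. Array number and unknown signal over background limit precision.

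Rows were named through accessions (24536), symbols (1794), synonyms (17) or as given (19); 8192 of 34558 have no gene, 0 have several, and all 11 member rows matched by accession. Names use the TAIR10.1 RefSeq table. A gene with several rows is called where at least 1 row is listed and listed rows share a sign; its value is their mean.

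Columns were checked for additivity (largest loop residual 2.0e-09), and values not listed were recovered from closed loops. The bound on a row's standard deviation is its smallest listed value, divided by the root of the summed reciprocal channel numbers and by the critical t of 2.66 (60 degrees of freedom). It assumes 1 pooled variance per row: recovered values that are not listed stayed below it in all but 61 of 4473 rows, 0 of the 2 such member rows among them. Differences between responses were tested two-sided with this bound over all rows where both were known. Least differences, with a response that is not listed at its limit, were added after seeing the data.

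All 10 members are named. Of the other XTH, expansin and xyloglucan lists, the 4 genes with the largest mean among those called alike in all 3 lines at a treatment and time could be named. Members and lists were chosen with earlier results of these data known, and the root markers named were chosen after their values were seen. Alternatives were the 0 h control, a size of at least 1, the adjusted bound, all rows listed, accession matches only, 4 channels per group and the normal distribution. Python 3.11.15, scipy 1.17.1, pandas 2.3.3 and matplotlib 3.10.9 were used.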

Additional observations from a re-analysis of the deposited data

How the results depend on the processing

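No paired analysis was possible because the table holds comparisons between groups and no value per replicate, and for the same reason no replicate could be left out. Most counts of member values kept their size under the alternatives. With the 0 h control the higher values went from 1 to 0 at 2 h of hypoxia, from 5 to 2 at 24 h of hypoxia and from 4 to 1 at 24 h of DETA. With the adjusted bound they were 0 at 2 h of hypoxia and 1 at 24 h of DETA, and with a size of at least 1 they were 3 at 24 h of hypoxia and 2 at 24 h of DETA. The 1 lower value of C13 against WT went to 0 where both XTH15 rows had to be listed and to 0 with the adjusted bound. The count for 2 h of DETA, 17 higher, stayed between 14 and 17. Of 23 member means over the lines, 16 kept their direction with the 0 h control and 7 had no listed value there; 1 of these 7, XTH17 at 2 h of hypoxia (1.00 in Mt62), is known to turn sign, to a recovered -0.35. Placing values that are not listed at their limit took the hypoxia and DETA differences that passed from 1 to 10, since more rows could be tested; that choice was made after seeing the data. The change of the controls with time gave 13 values from the hypoxia columns and 16 from the DETA columns, with 0 given by both. Differences between lines stayed at 0 with 4 channels per group, with the normal distribution and with limits. The bound is wide for XTH18 and XTH22, whose smallest listed values were large. Estimated values of up to 1.63 and 1.72 can therefore be unlisted with 4 channels a group.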
